A study of Homo sapiens with 4 samples.

Results

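NRSF/REST binding sites were examined at 40 genes that encode neuropeptides and peptide hormones, out of 20162 protein-coding genes of GENCODE release 44 mapped to hg19. The genes were chosen by name. A site was counted for a gene when it lay in the gene or within 10 kb of its boundaries. By this rule 13 of the 40 genes had a site at the basal SF-1 dosage and 12 had one at the increased dosage. These genes held 13 of the 5323 sites of the basal list and 14 of the 5059 sites of the list for the increased dosage. The genes were compared with other protein-coding genes of like length, namely the 100 nearest in length to each of the 40.

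The cells were H295R/TR SF-1, a clone of the human adrenocortical tumour cell line H295R, in which doxycycline switches on SF-1 in addition to the SF-1 these cells already make. Chromatin was immunoprecipitated with an antibody against NRSF/REST, in 1 library from untreated cells, the basal SF-1 dosage, and in 1 library from cells treated with doxycycline for 3 days, the increased SF-1 dosage. The labels give 1 mg/ml of doxycycline where the methods give µg/ml, and a further 2 libraries of input DNA were not analysed here. With 1 library per dosage no difference between dosages could be tested. All intervals are 95% Wilson intervals. For a count of 0 the share that 3 counts would give is printed as the limit it allows, which is lower than the Wilson bound. Both cover counting error over genes, sites or matches only, and describe these libraries.

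The lists give the boundaries of each site in steps of 50 bp, an order number and a score that is 1000 throughout, so that width and order are the only measures of a site. The meaning of the order number is not given in the sources used here. Sites early in the order were the wider ones (Spearman rho -0.947 over the basal sites and -0.951 over the others), so width and order are not separate evidence. The lists hold no read counts and no expression, so the depth is unknown and the cell type could not be checked against its marker genes.

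NRSF/REST (neuron-restrictive silencer factor, or RE1-silencing transcription factor) is a zinc finger repressor that binds the RE1 element and recruits co-repressors. In cells other than neurons it keeps many neuronal genes silent. Neuropeptides and peptide hormones are made as precursors that are cut into short secreted peptides, and many of them serve as transmitters in the brain and as hormones in the gut, the heart and the adrenal gland.

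The consensus searched here is the core of the RE1 element, which is CTGTCC, then any 2 bases, then GGTGCTG. It has 13 fixed bases over a length of 15, and up to 2 mismatches were allowed on either strand. The matches at these genes are shown first because sites were called at nearly all of the closest ones. Each sequence is hg19, 5′ to 3′ on the strand given, with 6 bases on either side, and the capitals mark both parts of the consensus. Matches without a mismatch lay in sites at TRH, HCRT, NPPA, NPPB, UCN and CRH (the sequence at CRH is not printed here). AGRP had such a match and no site, and it is set below the others for comparison.
TRH, chr3:129703154-129703180, minus strand: caggcgCTGTCCcaGGTGCTGgtcctg
HCRT, chr17:40332299-40332325, plus strand: atgtggCTGTCCaaGGTGCTGaacctg
NPPA, chr1:11905768-11905794, plus strand: tgtcttCTGTCCatGGTGCTGaagttt
NPPB, chr1:11919526-11919552, plus strand: tggccgCTGTCCgtGGTGCTGatcacc
UCN, chr2:27531465-27531491, plus strand: gtgaggCTGTCCatGGTGCTGaccccg
AGRP, outside any site, chr16:67511965-67511991, plus strand: cttattCTGTCCttGGTGCTGggctaa

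A single mismatch was found in the matches at SST, which had a pair of them in 1 site, at CARTPT, at VIP and at PENK (not printed here). NPPC had a match of this kind and no site. Substitutions give the base of the consensus first, and their positions count from 1 where the consensus begins. They were G3A and T4A at SST, G12A at CARTPT, C6T at VIP, G3A at PENK and G12C at NPPC.
SST, chr3:187387628-187387654, minus strand: tggcgtCTATCCctGGTGCTGaccctg
SST, the second match, chr3:187387600-187387626, minus strand: gaagcgCTGACCcaGGTGCTGaaacgc
CARTPT, chr5:71015523-71015549, minus strand: cggacgCTGTCCcaGGTACTGaccgcg
VIP, chr6:153072024-153072050, minus strand: ttggagCTGTCTtaGGTGCTGaagtcc
NPPC, outside any site, chr2:232789575-232789601, minus strand: actggtCTGTCCagGGTCCTGaggcag

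The sites at PDYN, UCN3 and ADCYAP1 held no match with at most 2 mismatches. The closest at PDYN (G12A, T14C and G15A) and at UCN3 (G3T, G10C and T14G) had 3 mismatches. At ADCYAP1 both parts were present without a mismatch but 8 bases apart.
PDYN, chr20:1960225-1960251, plus strand: taggcaCTGTCCagGGTACCAacatga
UCN3, chr10:5418568-5418594, minus strand: gctgtgCTTTCCcaGCTGCGGtgggtg
ADCYAP1, chr18:903788-903816, minus strand: ggagCTGTCCagactccgGGTGCTGaagt

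A site was thus called at 13 of the 40 genes in the basal list, or 32.5% (interval 20.1 to 48.0%), and at 12 in the list for the increased dosage, or 30% (18.1 to 45.4%). Of the genes of like length, 8.57% had a site in the basal list and 8.22% in the other. Of all other protein-coding genes, which are longer at a median over all coding genes of 27220 bp against 5942 bp for the 40, the shares were 13.9% and 13.5%. A site that held the consensus was present at 10 of the 40 genes at each dosage, or 25% (14.2 to 40.2%), against 4.03% and 4.25% of the genes of like length. The shares of the 40 genes therefore lay above those of both backgrounds, with intervals that did not reach down to them. The genes and comparisons were chosen with earlier results of these data known, so the intervals describe these 40 genes and are not a test. The 13 genes were not the long ones: their median length was 2637 bp (1046 to 15529 bp), against 7397 bp for the 27 genes without a site.

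**Figure D1:**
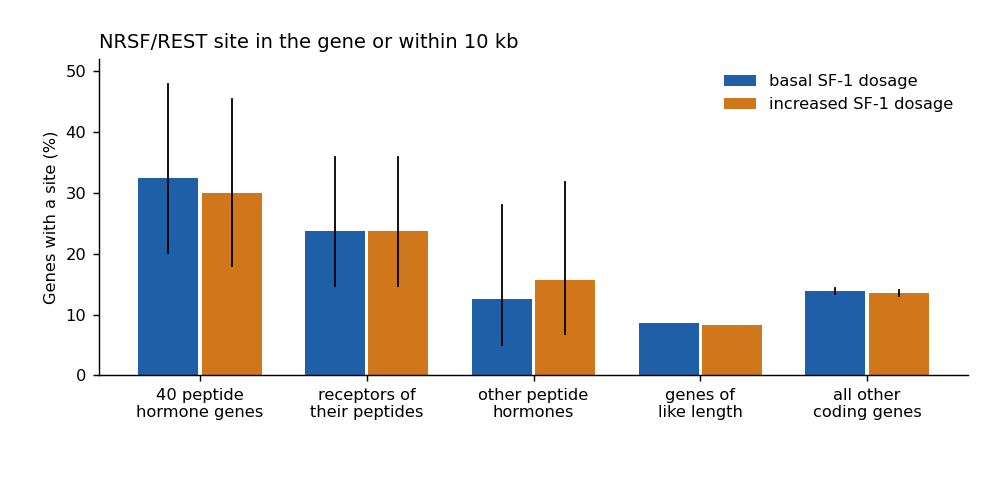
Share of genes with an NRSF/REST site in the gene or within 10 kb (percent, bars from 0) at basal (blue) and increased (orange) SF-1 dosage, for the 40 peptide hormone genes, receptors of their peptides, other peptide hormones, genes of like length and all other coding genes. Black lines are 95% Wilson intervals over genes, not drawn for the genes of like length, where a gene can stand for several of the 40; the share of the 40 genes was 32.5% and 30%, against 8.57% and 8.22% at like length.

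By kind of peptide, sites were found at 3 of 7 releasing and release-inhibiting hormones, 2 of 12 peptides of feeding, arousal and pigmentation, 2 of 3 opioid precursors, 2 of 4 genes of the secretin and calcitonin families and 2 of 3 natriuretic peptides. Both urocortins had a site at the basal dosage and 1 of them at the increased dosage. Neither posterior pituitary hormone and none of the 7 tachykinins and gut-brain peptides had a site. Groups of this size do not allow one kind to be set apart from another.

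Of the hypothalamic hormones, CRH, TRH and SST had a site at both dosages. CRH encodes corticotropin-releasing hormone, which drives ACTH secretion from the pituitary. Its basal site (chr8:67089201-67090699) was 1499 bp wide, wider than 99.5% of the basal list and number 93 in its order, and at the increased dosage it was 1349 bp wide (chr8:67089151-67090499) and number 85. The site covered most of this short gene, and the match without a mismatch lay in intron 1, 810 bp after the start of transcription. TRIM55 also lay within 10 kb of the site. A second, 99 bp wide site was called 152 bp upstream of CRH in the list for the increased dosage, as number 4925 of 5059 (chr8:67090851-67090949). It held no consensus and overlapped no site of the basal list.

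SST encodes somatostatin, which inhibits the release of growth hormone and of many gut hormones. Its site was 1049 bp wide at the basal dosage (chr3:187387251-187388299, number 160) and 1099 bp at the increased dosage (chr3:187387201-187388299, number 318), and covered the start of transcription both times. It held 3 matches. Those with a single mismatch lay in intron 1, 541 and 569 bp after the start, and the one with 2 mismatches (G9C and G12C) lay in the coding exon at 146 bp. TRH encodes thyrotropin-releasing hormone. Its site was much farther from the gene, 6123 bp downstream at the basal dosage (chr3:129702901-129703399, 499 bp wide, number 1895) and 6073 bp at the increased dosage (chr3:129702851-129703399, 549 bp, number 1729). This was the site nearest to the limit of 10 kb from inside, and no other coding gene lay within 10 kb of it.

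The other hormones of this kind had no site within 10 kb. For GHRH, the growth hormone-releasing hormone, the nearest basal site was 192 kb away, for GNRH1, which drives the gonadotropins, 82.8 kb, for CORT (cortistatin, a relative of somatostatin) 602 kb and for KISS1, which acts on the neurons that make gonadotropin-releasing hormone, 451 kb. The related pair SST and CORT therefore differed, with 3 matches, all in a site, at SST and no match with at most 2 mismatches in the region of CORT. AVP and OXT, the hormones of the posterior pituitary, lie next to each other in the genome. Their nearest basal sites were 702 and 714 kb away and their nearest sites at the increased dosage 163 and 152 kb.

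Among the peptides of feeding and arousal, CARTPT and HCRT had wide sites. CARTPT, the precursor of a peptide that lowers food intake, had a site of 1499 bp at both dosages (chr5:71014551-71016049, number 276, and chr5:71014601-71016099, number 253). It covered the start of transcription, and its match lay in intron 1 at 434 bp. HCRT encodes the orexins, which sustain wakefulness. Its site was 1299 bp wide at both dosages (chr17:40331951-40333249, number 220, and chr17:40331901-40333199, number 176) and lay 2829 and 2879 bp downstream of the gene. The site overlapped KCNH4, a potassium channel gene, whose start of transcription was 560 bp from the middle of the basal site. That middle was 4870 bp from the start of HCRT. The site thus lay nearer to KCNH4, and it was counted for HCRT only by the 10 kb rule. GHDC also lay within 10 kb of it.

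No site was near the other genes of this group. AGRP, which raises food intake, had its nearest basal site at 35.2 kb and POMC, the precursor of ACTH and of the melanocortins that AGRP opposes, at 44.6 kb. The distances were 27.2 kb for NPB and 439 kb for NPW (neuropeptides B and W), 47.9 kb for QRFP (an RFamide peptide), 189 kb for PYY (a gut peptide related to neuropeptide Y), 253 kb for NPFF (neuropeptide FF, a modulator of opioid action), 453 kb for GAL (galanin), 609 kb for PMCH (melanin-concentrating hormone) and 1007 kb for NPY (neuropeptide Y).

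PDYN and PENK, the precursors of the dynorphins and enkephalins, had sites at both dosages, and PNOC, the precursor of nociceptin, had its nearest site 314 kb away. The site at PDYN was among the narrower ones at these genes, at 399 bp (chr20:1960001-1960399, number 1901) and 349 bp (chr20:1960051-1960399, number 1966). It was still wider than 57.8% of the basal list and 51.5% of the other. It lay in the 3′ UTR in exon 4, 14504 bp from the start of transcription at the basal dosage, and held no consensus. The site at PENK (549 bp, chr8:57357851-57358399, number 1115, and 599 bp, chr8:57357851-57358449, number 1185) lay around its match in intron 3, 1138 bp after the start.

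VIP and ADCYAP1 encode the related peptides VIP and PACAP, which share receptors that raise cyclic AMP. The site at VIP was 599 bp wide at the basal dosage (chr6:153071701-153072299, number 884) and 749 bp at the increased dosage (chr6:153071751-153072499, number 888), and covered the start of transcription. Its match lay in the 5′ UTR in exon 1, 105 bp after the start. The site at ADCYAP1 was 649 bp wide (chr18:903401-904049, number 260) and 749 bp wide (chr18:903351-904099, also number 260), and lay 823 and 773 bp upstream of the gene. The list for the increased dosage had a second site there, 249 bp wide and 2123 bp upstream (chr18:902501-902749, number 3248), without the consensus. CALCA and CALCB, which encode calcitonin and the calcitonin gene-related peptides, were the farthest from any site of all 40 genes, at 1677 and 1615 kb.

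The site at ADCYAP1 was the widest, at either dosage, of those at the 40 genes that held no consensus. The separated parts printed above lay at -1070 bp from the start of transcription and 77 bp from the middle of the site. Parts without a mismatch at this distance of 8 bases were present in 53 of 3159 basal sites without the consensus, or 1.68%, and in 50 of 2930 sites at the increased dosage, or 1.71%. In windows as wide as those sites, placed 10 kb upstream and downstream, they were present in 0 of 6318, which allows a share of up to 0.0475%, and in 1 of 5860. This spacing was thus seen at few sites, and hardly at all outside them.

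The natriuretic peptides NPPA and NPPB are hormones of the heart that promote the excretion of salt. They are neighbours in the genome, and each had its own site with a match free of mismatches. The site at NPPA was 699 bp wide (chr1:11905451-11906149, number 1292) and 749 bp wide (chr1:11905501-11906249, number 1208), and its match lay in the 3′ UTR in exon 3, 2059 bp after the start of transcription. It also overlapped CLCN6, a chloride transporter gene. The site at NPPB was 999 bp wide (chr1:11919051-11920049, number 110) and 849 bp wide (chr1:11919151-11919999, number 101), and lay 49 and 149 bp upstream of the gene with its match at -537 bp from the start. It was the only one of the sites at the 40 genes that held the SF-1 consensus, at both dosages. The third natriuretic peptide gene, NPPC, had no site within 141 kb.

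UCN and UCN3 encode urocortins, relatives of corticotropin-releasing hormone. The site at UCN had identical boundaries at both dosages (chr2:27531301-27531699, 399 bp, number 1951 and number 1857) and covered the start of transcription, with its match at -165 bp from it. MPV17 and TRIM54 also lay within 10 kb of it. UCN3 was the only gene of the 40 that had a site in one list and none in the other: a site of 249 bp, number 2662 of 5323, lay 1846 bp downstream at the basal dosage (chr10:5418501-5418749), and the nearest site at the increased dosage was 1223 kb away. It was the narrowest basal site at these genes and held no consensus. Whether binding there differed between dosages could not be tested.

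Promoters, taken as 250 bases before to 50 after the start of transcription, were matched for 35 of the 40 genes in RefSeq (GRCh38.p14). Of these 35, UCN was the only one with a match in its promoter, and 714 of all 35116 promoters of that table, or 2.03%, held a match. The bases before the start are shown because the basal and increased sites both lay over them. They run in the direction of transcription, so the capitals are the opposite strand of the match printed above, GGTGCTG first and CTGTCC after it (chr2:27308446-27308695 of GRCh38.p14, minus strand).
UCN promoter: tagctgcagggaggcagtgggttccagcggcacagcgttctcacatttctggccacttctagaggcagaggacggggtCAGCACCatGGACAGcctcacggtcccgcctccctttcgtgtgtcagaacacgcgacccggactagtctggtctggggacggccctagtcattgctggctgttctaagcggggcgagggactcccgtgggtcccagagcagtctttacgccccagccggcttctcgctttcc

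The tachykinins and gut-brain peptides had no site. TAC3 (neurokinin B) was the gene nearest to the limit from outside, with a site 20.8 kb away at both dosages, and CCK (cholecystokinin) followed at 33.6 kb. The nearest basal sites were 79.4 kb from GRP (gastrin-releasing peptide), 487 kb from NMU (neuromedin U), 705 kb from NTS (neurotensin), 873 kb from TAC1 (substance P) and 1480 kb from NMB (neuromedin B). Over the 27 genes without a site at either dosage the median distance was 439 kb for basal sites and 314 kb for those of the increased dosage. All 40 genes had medians of 81.1 and 112 kb. The 3274 different genes of like length, those with a site included, had medians of 156 and 172 kb. The 27 genes were picked for having no site, so only the values of all 40 can be set beside these. No gene had its nearest basal site between 6.12 and 20.8 kb, so the count of 13 is the same for any limit between these values.

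**Figure D2:**
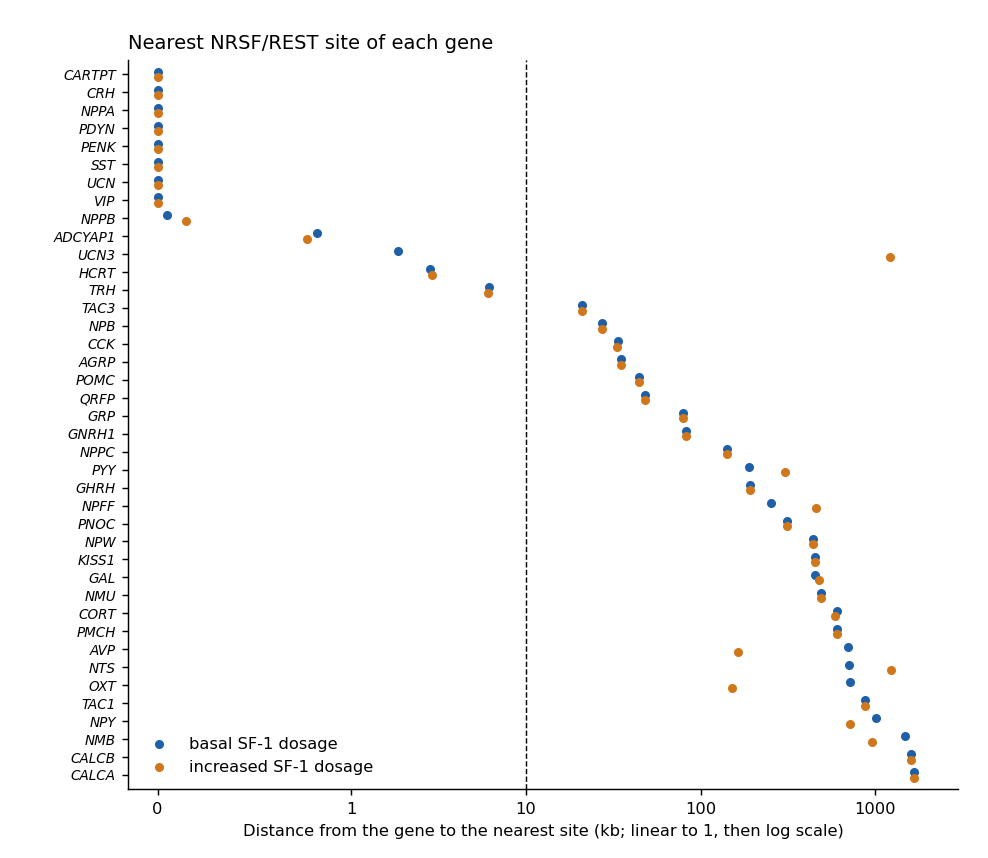
Distance in kb from each of the 40 genes to the nearest NRSF/REST site at basal (blue) and increased (orange) SF-1 dosage, 0 where the site overlaps the gene (horizontal axis linear up to 1 kb and logarithmic beyond; dashed line at 10 kb). Genes are ordered by the basal distance: there is a gap between TRH at 6.12 kb and TAC3 at 20.8 kb, and UCN3 is the one gene on different sides of the line.

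The sites lay close to the start of transcription. At 5 of the 13 genes at the basal dosage, or 38.5% (17.7 to 64.5%), a site covered it (CRH, SST, CARTPT, VIP and UCN), and at 4 of 12 genes, or 33.3% (13.8 to 60.9%), at the increased dosage, where CRH dropped out. The basal site at CRH ended on the start itself (67090699). The site at UCN, from 27531301, reached just past its start at 27531313. Both margins were smaller than the 50 bp step of the boundaries, so these calls could turn on that step. Of the different genes of like length with a site the shares were 6.53% and 6.86%. These genes were matched in length to all 40 genes (median 5942 bp). They were not matched to the 13 genes with a site (median 2637 bp). A site within 1 kb of the start was present at 8 of 13 genes, or 61.5% (35.5 to 82.3%), and 8 of 12 genes, or 66.7% (39.1 to 86.2%), against 20.6% and 20.2%. TRH, HCRT, PDYN, NPPA and UCN3 were the genes whose basal site was farther away.

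The match itself lay within 1 kb of the start of transcription in 6 of the 10 sites with the consensus, or 60% (31.3 to 83.2%), against 16.05% and 15.15% of such sites at genes of like length. It ran opposite to the gene in 9 of the 10 sites, or 90% (59.6 to 98.2%), with SST the exception. Genes of like length showed no such lean, at 52.5% and 52.7%, nor did all other coding genes, at 50% and 51.0%. Only 10 sites stand behind this direction, and it was noticed in these data.

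**Figure D3:**
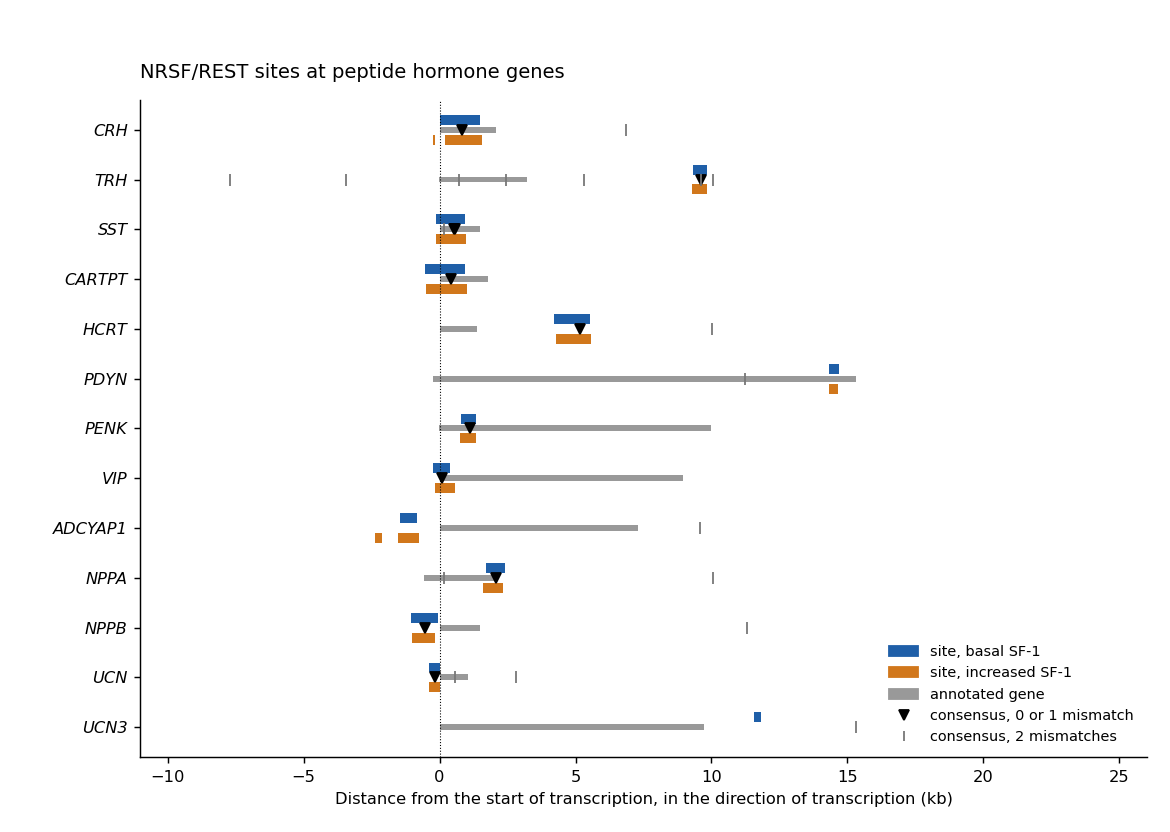
Map of the 13 genes with a site, on a common scale in kb from the start of transcription (0, dotted line) in the direction of transcription. Grey bars are the annotated genes, blue and orange bars the sites at basal and increased SF-1 dosage, triangles consensus matches with 0 or 1 mismatch and ticks those with 2; every triangle lies in a site, and the sites at TRH, HCRT, PDYN and UCN3 lie far from the start.

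The sites were wider than most. Their median width was 649 bp at the basal dosage (249 to 1499 bp) and 749 bp at the increased dosage (99 to 1499 bp), and other sites in or near a coding gene had a median of 349 bp in both lists. Their median order number was 884 and 1036, against 2492 and 2372. Of the basal sites 12 of 13, or 92.3% (66.7 to 98.6%), overlapped a site of the other list, against 67.1% of other sites near coding genes, and from the increased dosage 12 of 14 did, or 85.7% (60.1 to 96.0%), against 70.0%. Those without a partner were narrow: the site at UCN3 and the second sites at CRH and ADCYAP1 were 249, 99 and 249 bp wide. The shares of overlap were not compared with those of other sites of like width.

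In the 12 pairs of overlapping sites the width changed little with SF-1 dosage. The site was wider at the increased dosage in 6 pairs (SST, TRH, PENK, VIP, ADCYAP1 and NPPA), equal in 3 (CARTPT, HCRT and UCN) and narrower in 3 (CRH, NPPB and PDYN). Of all 3471 overlapping pairs of the lists 1214 were wider, 919 equal and 1338 narrower at the increased dosage. In the 12 pairs the difference, increased minus basal, ranged from -150 to 150 bp with a median of 25 bp, less than 1 step of the boundaries. Over all pairs the median was 0 bp, with quartiles of -50 and 50 bp. Which of these differences exceed the spread between libraries of the same dosage cannot be told with 1 library each.

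**Figure D4:**
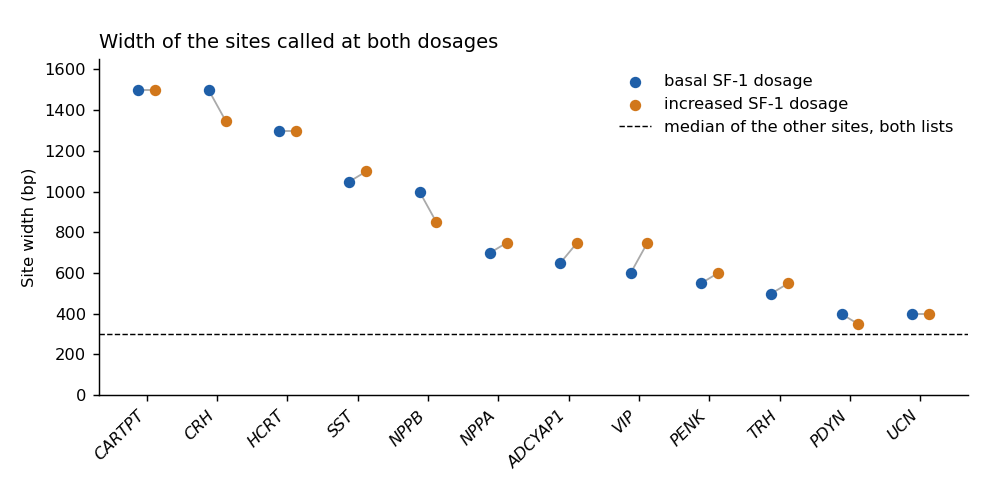
Width in bp of the site at each gene that had one in both lists, at basal (blue) and increased (orange) SF-1 dosage, joined by a grey line and ordered by the basal width. The dashed line is the median of all other sites, 299 bp in both lists; all 12 pairs lie above it, from 349 to 1499 bp, and no pair differs by more than 150 bp.

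The consensus was frequent in these sites. It was present in 10 of 13 basal sites, or 76.9% (49.7 to 91.8%), and in 10 of 14 sites at the increased dosage, or 71.4% (45.4 to 88.3%), against 44.6% and 45.8% of other sites near coding genes. Without a mismatch it was present in 6 sites of each list, or 46.2% (23.2 to 70.9%) and 42.9% (21.4 to 67.4%), against 13.6% and 14.3%. Of the windows of the same width placed 10 kb upstream and downstream, 0 of 26 held it at the basal dosage, which allows a share of up to 11.5% (Wilson bound 12.9%), and 0 of 28 at the increased dosage, which allows up to 10.7% (Wilson bound 12.1%). The windows of the other sites near coding genes gave 2.10% and 2.04%. Those other sites were also narrower, and the shares with the consensus were not compared with other sites of like width. The SF-1 consensus was present in 1 site of each list, 7.69% and 7.14%, against 12.5% and 12.6%.

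Looked at from the sequence, nearly every close match at the 40 genes lay in a site. The 40 regions held 88 matches, and 13 of them were in a site at either dosage. Of those without a mismatch 6 of 7 were in a site, or 85.7% (48.7 to 97.4%), against 75.3% of the 567 matches of this kind in the regions of all other coding genes and 76.6% at genes of like length (basal dosage). Of those with a single mismatch 5 of 6 were in a site, or 83.3% (43.7 to 96.99%), against 11.9% of 5035 and 11.1% of 539, and these 5 matches lay in 4 sites, since SST had a pair of them. All 6 had an A just after the consensus. With an A there, 32.3% of 1301 single-mismatch matches at all other coding genes were in a basal site, so 11.9% is not a like background. With 2 mismatches only 2 of 75 were in a site, or 2.67% (0.734 to 9.21%), against 0.903%, and both were beside a better match, at SST and TRH. A match with 2 mismatches was therefore common and seldom in a site: 22 of the 27 genes without a site had at least 1 match in their region.

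**Figure D5:**
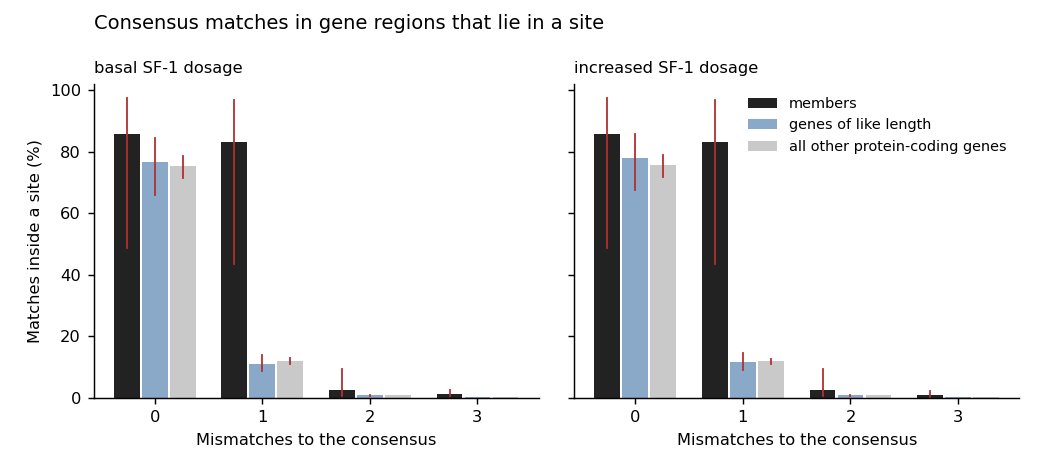
Share of consensus matches in gene regions that lie inside an NRSF/REST site (percent, bars from 0), by number of mismatches, at the basal dosage on the left and the increased dosage on the right, for the 40 genes (members, black), genes of like length (blue) and all other protein-coding genes (grey). Red lines are 95% Wilson intervals over matches: the 40 genes stand higher at 1 mismatch (83.3% against 11.9%), on 6 matches only, and not apart at 0 mismatches (85.7% against 75.3%). All 6 of those matches are followed by A, and other coding genes had 32.3% in a basal site for such matches.

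Each of the single substitutions at these genes had a higher share in a basal site elsewhere than single-mismatch matches as a whole, at 11.9%. The shares ranged widely. In the regions of all other coding genes, matches with G12C alone were in a basal site in 56.9% of 188 cases, with G12A in 50% of 92, with G3A in 41.1% of 56, with T4A in 28.4% of 109 and with C6T in 14.4% of 118. Of these, G12C, the change in the match of NPPC outside any site, had the highest share. C6T, the change in the match of VIP inside a site, had the lowest. Matches with a substitution of G at position 10 (G10A, G10C or G10T) were in a basal site in 0 of 402 cases, which allows a share of up to 0.746%. No match at the 40 genes with a single mismatch had one of these.

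The consensus searched is only a core, and the paper describes the recognition sequence of NRSF/REST as extended. The bases on either side were not part of the search, so a match without a mismatch need not match the full element. These bases too differed between matches in a site and matches outside. The printed matches in sites often have G just before the consensus and A just after it. The paper's NRSF/REST probe, read on its other strand, has the same bases at these places. Among the matches without a mismatch in the regions of all other coding genes, 92.3% of the 337 followed by A were in a basal site, against 57.8% of the 64 followed by C, 57.9% of the 121 followed by G and 20% of the 45 followed by T. With G before and A after, 172 of 176 were in a site, or 97.7% (94.3 to 99.1%). HCRT, NPPB and UCN have both of these bases, NPPA has only the A and TRH only the G.

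AGRP has neither, with T before the match and G after it. Matches of this kind at other coding genes were in a basal site in 4 of 15 cases, or 26.7% (10.9 to 51.95%), and AGRP was on the side of the majority. Whether these bases have a part in the lack of a site was not tested. The match at AGRP was 30672 bp from the nearest basal site. NPPC has T before and A after its match. At other coding genes 17 of 19 matches with G12C and these bases were in a basal site, or 89.5% (68.6 to 97.1%), and NPPC, with no site within 141 kb, was on the side of the minority.

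The shares of related genes with a site were lower than those of the 40, with intervals that overlapped theirs. Of 59 receptors of these peptides, with a longer median of 18730 bp, 14 had a site at each dosage, or 23.7% (14.7 to 35.97%). Of 32 other peptide hormones, with a median length of 6372 bp close to that of the 40 genes, 4 had a site at the basal dosage, or 12.5% (4.97 to 28.1%), and 5 at the increased dosage, or 15.6% (6.86 to 31.8%). The widest basal sites of both lists were at OPRM1, the µ opioid receptor (1099 bp, and 1049 bp at the increased dosage), and at CRHR2, the receptor of the urocortins (999 bp at both dosages). They were followed by MLN (motilin), NMBR (the neuromedin B receptor) and NMS (neuromedin S), with 749 bp each.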

How the data were processed

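NRSF/REST ChIP-seq reads of 1 library per SF-1 dosage were mapped by the authors to hg19 with ELAND (CASAVA 1.6 per the submitters' processing notes). Peak caller settings are stated for SF-1 sites only. The deposited lists give boundaries, an order number, which like the constant score of 1000 is a score of no stated unit, and no depth; starts were taken as counted from 0. Deposited coordinates were used as they are, 1 library per list, with no pooling. Overlap with genes (GENCODE 44, hg19) needed at least 1 bp. The consensus was searched in hg19 in every site, in gene regions and in windows 10 kb away. Python 3.11.15, numpy 2.4.6, scipy 1.17.1 and matplotlib 3.10.9 were used. The search for the consensus and its separated parts, the naming of substitutions, site overlap and nearest distance were checked on simulated data. No test was made between dosages. Every gene of the list is accounted for, those with a site by position, width and match, the others by distance. Of the related lists up to 5 genes with the widest basal sites are named. The genes, lists and comparisons were chosen with earlier results of these data known. Alternatives were other windows, stricter lists, mismatches, overlap rules and gene boundaries.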

Additional observations from a re-analysis of the deposited data

How the results depend on the processing

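Recomputed under other settings were the counts of genes, sites, consensus sites and matches in sites, the share at like length and the sharing between lists. Of these 62 values 47 were labelled as close to the value given and 15 as moved. The labels are coarse: sharing of 76.9% (basal) and 71.4% (increased) with midpoints within 100 bp, against 92.3% and 85.7%, was labelled close. Positions, match direction, widths, substitutions, flanking bases, promoters and related lists were not recomputed. The count of genes with a site lay between 11 and 14 at the basal and between 10 and 13 at the increased dosage. HCRT and TRH were lost with a window of 2 kb, TAC3 was gained with 25 kb, UCN3 was lost from the basal count in the widest 50% or first 50% of the list, and PDYN (with UCN3 at the basal dosage) was lost when only 10 kb around the 5′ end counted. What moved was mainly the share of genes of like length with a site, basal and increased: 4.85% and 4.95% with 2 kb, 14.6% and 13.8% with 25 kb, 5.28% and 5.12% in the widest 50%, 5.25% and 5.03% in the first 50%, 6.42% and 6.17% around the 5′ end, and 13.9% and 13.5% with all other coding genes in their place. In the widest 50% all sites, 100% at both dosages, overlapped a site of the other list. With 3 mismatches allowed, 20 matches lay in a basal site. These settings use other windows, fewer sites or more matches by construction. With canonical transcript boundaries, chosen after seeing the data, 13 and 12 genes had a site, and the shares at like length were 7.97% and 7.67%. The direction and flanking bases of matches were also looked at after seeing the data. No paired analysis was possible because each dosage has 1 library. Depth is unknown, so a gene without a site may hold binding below the limit of calling.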
